A study of Rattus norvegicus with 2 samples.

Results

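The transcription factors that specify the sensory neurons (SNs) of dorsal root ganglia (DRGs) and their subtypes were examined as a set of 10 genes, Isl1, Isl2, Pou4f1, Pou4f2, Runx1, Runx3, Tlx3, Prrxl1, Etv1 and Klf7. Members were found by gene symbol in the annotation of the array's probe sets, where each probe set joins several short probes for a transcript into a single signal. Of the 10, 9 were measured, with 20 probe sets among 31042, and they are 9 of the 14217 genes with a probe set of their own. Prrxl1 was found under its current symbol Drgx, and Pou4f2 was not analysed here because no probe set carries its symbol alone. DRGs on the tumor side came from 4-week-old female Sprague-Dawley rats whose right tibia had been inoculated 14 days earlier with 100000 IP-B12 cells, a rat lung carcinoma line that destroys bone. DRGs belonging to the left tibia served as control side, so both groups came from tumor-bearing rats, and no injection into the left tibia is described. Each side was 1 array, and the sources used here do not give the number of rats. The differences below are therefore descriptions of these arrays, with no replicate error and no test.

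SNs arise from the neural crest, and their identity is set by transcription factors that act in layers. In the mouse, ISL1 and POU4F1 are switched on in nearly all new SNs and close the early neurogenic program, after which RUNX1, TLX3 and PRRXL1 direct nociceptor fates while RUNX3 and ETV1 direct proprioceptor fates. KLF7 is a zinc finger factor of developing neurons, and many of these factors remain expressed in adult ganglia. RUNX1 is also made by blood cells, and ISL1 and ISL2 by motor neurons.

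The upstream sequences of Pou4f1 and Runx3 are shown because Pou4f1 had the lowest log2 ratio of the members above the signal rule explained below and because the 2 start sites of Runx3 differ in a site for the family itself. They come from RefSeq on build GRCr8 and run over the 250 bases before a start site. All 10 members had such a sequence, 11 in all, as Runx3 had 2. Capitals in Pou4f1 mark the E-box CANNTG, the site of bHLH factors such as the neurogenins, which reads the same on both strands. Capitals in Runx3 mark the runt site TGTGGT, searched on both strands and read here as ACCACA. No marked letters of 1 motif overlapped a match of the other.
Pou4f1, chr15:87674644-87674893, minus strand: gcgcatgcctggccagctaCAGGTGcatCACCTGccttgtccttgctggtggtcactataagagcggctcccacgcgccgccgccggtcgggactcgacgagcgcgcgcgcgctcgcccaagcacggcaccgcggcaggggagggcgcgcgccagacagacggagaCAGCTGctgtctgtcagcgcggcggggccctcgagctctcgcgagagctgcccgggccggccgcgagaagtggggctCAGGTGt
Runx3, upstream start, chr5:152644020-152644269, plus strand: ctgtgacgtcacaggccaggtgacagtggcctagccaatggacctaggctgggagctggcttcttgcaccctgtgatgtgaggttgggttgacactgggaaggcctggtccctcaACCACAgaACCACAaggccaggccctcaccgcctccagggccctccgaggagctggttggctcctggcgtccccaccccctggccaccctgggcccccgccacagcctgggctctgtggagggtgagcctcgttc
Runx3, downstream start, chr5:152677396-152677645, plus strand: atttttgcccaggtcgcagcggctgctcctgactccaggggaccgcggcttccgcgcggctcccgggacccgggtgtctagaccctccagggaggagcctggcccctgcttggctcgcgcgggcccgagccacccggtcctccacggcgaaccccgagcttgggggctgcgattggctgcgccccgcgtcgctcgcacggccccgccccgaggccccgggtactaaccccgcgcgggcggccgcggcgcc
The Pou4f1 sequence held 4 E-boxes, and 3.20% of the 33469 rat promoters of this length held 4 or more. An E-box was found in 7 of the 11 member sequences and in 65.5% of all promoters. The upstream start of Runx3 held 2 runt sites close together, while 14.5% of all promoters held at least 1 and 1.44% held 2 or more, and no other member sequence held one, the downstream start of Runx3 included. The homeodomain site TAATTA, the same on both strands, was in none of the 11 and in 4.86% of all promoters. CpG counts of the member sequences ran from 6 to 34, against a median of 5 over all promoters. The 6 of Etv1, Runx1 and the upstream start of Runx3 were near that median and were matched or exceeded by 49.8% of all promoters, while the 33 of Pou4f1 were matched or exceeded by 3.60%. Such matches describe letters in these windows and show no binding.

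The tumor-side array was slightly brighter, with a median signal of 72.7 on the tumor side and 69.0 on the control side. The values are the authors' MAS 5.0 signals on a linear scale, used as deposited, and log2 ratios set the tumor-side array over the control-side array. Probe sets were taken as above the signal rule if at least 1 of their signals was no lower than its array's median, which held for 15925 probe sets and 9695 genes. The median log2 ratio of these genes was 0.08, so a gene with equal signals on both sides was already below the typical gene. The label of the tissue was checked on 8 SN markers, all of which were above the signal rule. One of them, Avil, which encodes the SN protein advillin and depends on Pou4f1 in the mouse, had 6325 on the tumor side and 6271 on the control side.

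Above the signal rule no transcription factor of SN identity passed a fold of 1.5, and most were slightly lower on the tumor side. Of the 8 members above the signal rule, 7 had a lower signal on the tumor side, while 29.1% of all genes above the rule were lower. Their log2 ratios lay between -0.33 and 0.22 with a median of -0.07, against 0.08 for all genes. None of the 8 was at least 2 times higher, as were 0.134% of all genes, and none was at least 2 times lower, as were 0.186%. At a fold of 1.5 in either direction there was again none of the 8, with 1.93% of all genes. With shares this small, none of 8 says little about the members. Percentiles 25 and 75 of the log2 ratios of all genes above the rule were -0.019 and 0.178. All 8 members lay outside them, Runx3 only just with -0.020. The background counts at a fold of 2, 13 genes higher and 18 lower, became 10 and 22 after quantile normalization, 10 and 24 with median-centred ratios and 10 and 23 after loess. The count of 7 lower members rests on the brightest probe set of each gene. When a gene's probe sets were averaged, 6 of 8 were lower, because Etv1 and Klf7 turned higher and Runx1 turned lower. The share of all genes lower under that averaging is not given here. Fewer neurons and less RNA per neuron cannot be told apart in such whole ganglia.

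**Figure D1:**
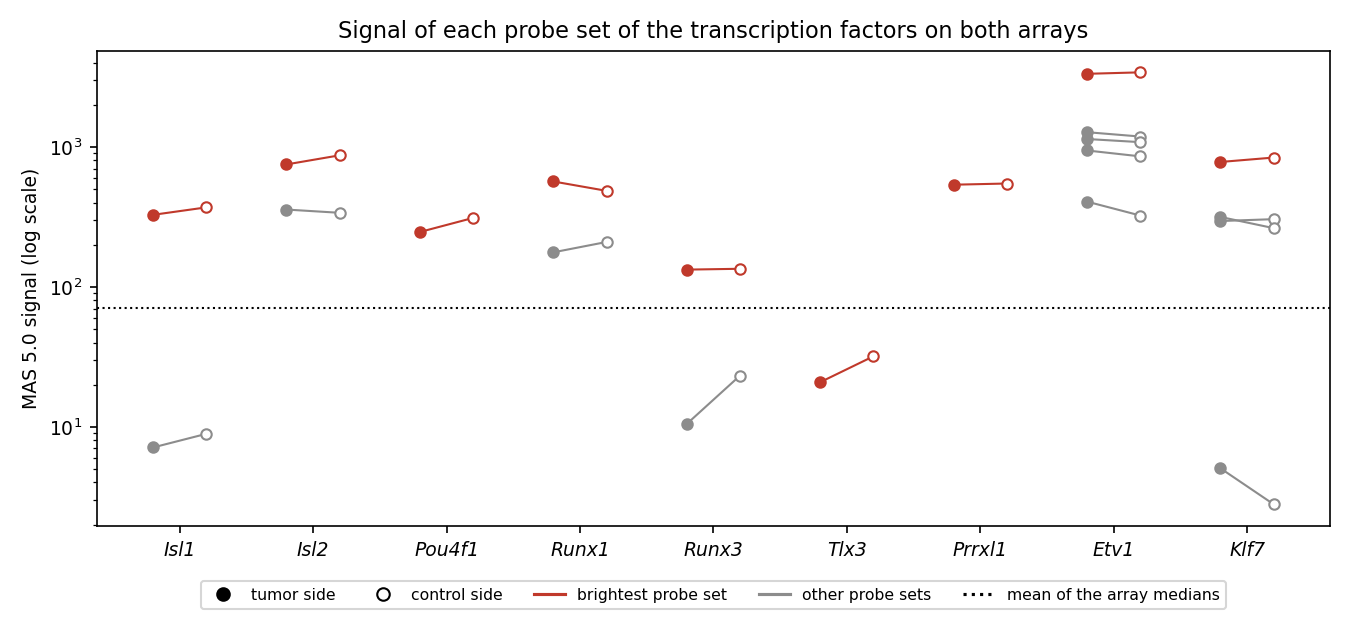
MAS 5.0 signal on a log scale for each probe set of the 9 measured genes, with the tumor-side array as filled points and the control-side array as open points. Lines join the values of 1 probe set, red marks the brightest probe set of a gene, and the dotted line is the mean of the array medians. Lines are nearly level for most genes, and those of Tlx3 and of the dimmest probe sets of Isl1, Runx3 and Klf7 lie under the dotted line.

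Among the LIM and POU homeodomain factors, which mark nearly all SNs, the lower signal was largest for Pou4f1. Pou4f1, which encodes BRN3A, a factor needed for SN survival and subtype choice in the mouse, had a signal of 247 on the tumor side and 311 on the control side on its only probe set. This is 0.793 times the control-side signal, a log2 ratio of -0.33, and 2.83% of genes above the rule had a ratio as low. The central range of its neighbours, which leaves out 5% of the log2 ratios of the 500 probe sets nearest in signal, ran from -0.33 to 0.43, and Pou4f1 lay just below the lower end. Isl1, which encodes ISLET1, had 327 on the tumor side and 370 on the control side, a log2 ratio of -0.18 that lay inside the range of its neighbours, from -0.22 to 0.43. A further probe set of Isl1 was dim, with 7.12 and 8.91.
Isl2, the paralog of Isl1, gave opposite answers on its 2 probe sets. The brightest had 749 on the tumor side and 871 on the control side, a log2 ratio of -0.22 that lay below the range of its neighbours, from -0.16 to 0.35. The other, designed on the RefSeq mRNA, had 357 on the tumor side and 338 on the control side, a log2 ratio of 0.08 close to the median gene. The difference between both, -0.29, was exceeded or matched in size by 18.2% of genes with 2 probe sets above the rule. Whether one probe set reads another transcript form was not tested. As motor neurons also express these genes, their 3 measured markers were read, and these did not go one way. Slc5a7, the choline transporter gene, was the only one above the signal rule, with 127 on the tumor side and 101 on the control side, a log2 ratio of 0.33 inside the range of its neighbours. Chat, the gene of choline acetyltransferase, was dim with 2.27 on the tumor side and 10.02 on the control side. Slc18a3, the gene of the vesicular acetylcholine transporter, was also dim, with 10.1 on the tumor side and 3.28 on the control side on probes that may cross-hybridise. For scale, the trp controls, probe sets for a bacterial transcript, reached 4.63 on the tumor-side array and 5.39 on the control-side array. The summed signal of the 3 markers, most of it from Slc5a7, was 140 on the tumor side and 114 on the control side, and their part in the Isl1 and Isl2 signals was not tested.

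**Figure D2:**
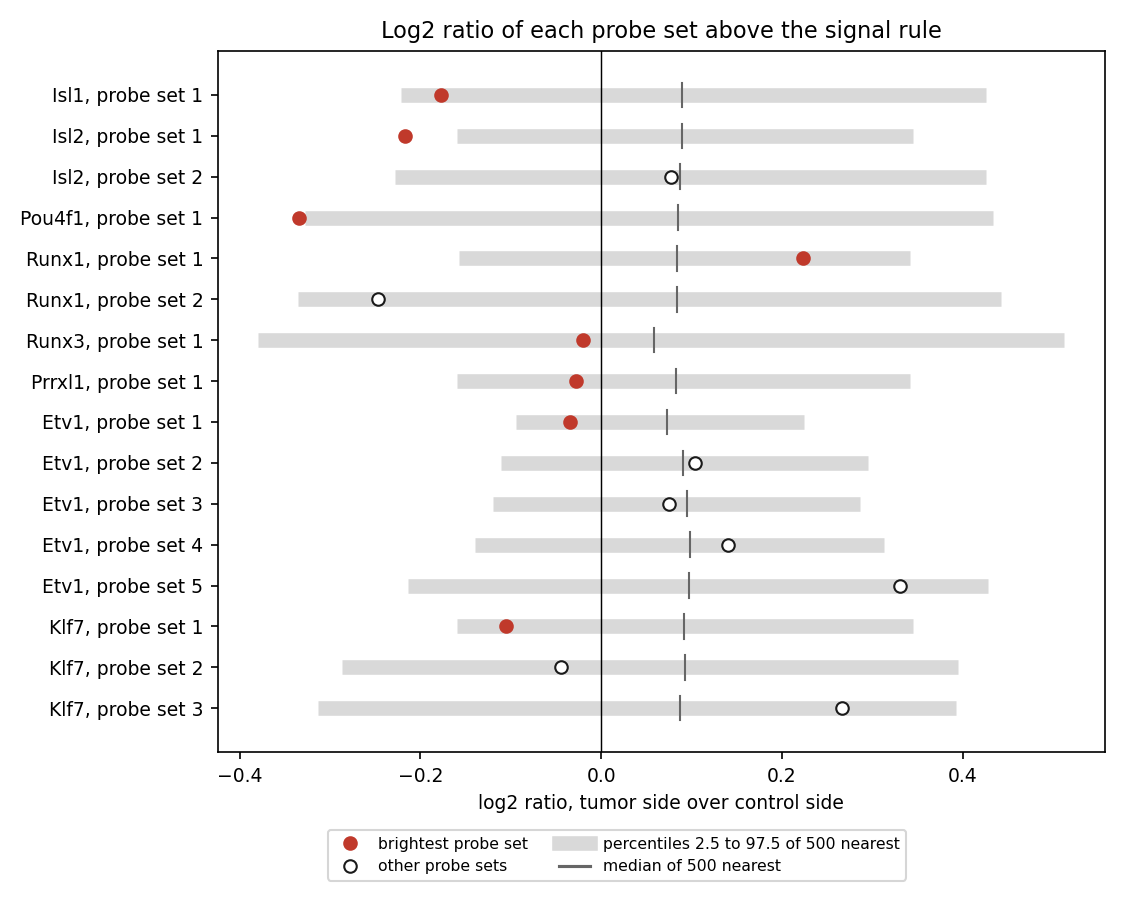
Log2 ratio, tumor side over control side, for the 16 probe sets above the signal rule, with red points for the brightest probe set of a gene and open points for the others. Grey bars are the central range of the 500 probe sets nearest in signal, with 5% left out, and the short line is their median. Pou4f1 and the brightest probe set of Isl2 lie left of their bars, and the other 14 lie within them.

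Of the runt factors, Runx1 was the only member above the rule that was higher on the tumor side, and only by its brightest probe set. Runx1, which in the mouse sets up the non-peptidergic nociceptor program, had 566 on the tumor side and 485 on the control side on the probe set designed on its RefSeq mRNA. The log2 ratio of 0.22 lay inside the range of its neighbours, from -0.16 to 0.34, and 17.2% of genes had a ratio as high. A second probe set went the other way, with 176 on the tumor side and 209 on the control side, for a log2 ratio of -0.25, and averaging both gave -0.01. The distance between both, 0.47, was reached by 7.04% of genes with 2 probe sets above the rule. RUNX1 is also made in myeloid cells, and these did not move together. Of 4 macrophage markers above the rule 3 had higher tumor-side signals, with a summed signal over all 5 measured of 1035 on the tumor side and 914 on the control side, and Csf1r, the receptor of macrophage growth factor, had 253 and 204. Of the granulocyte markers, 3 of 3 above the rule were lower, with a summed signal over all 4 measured of 559 on the tumor side and 1164 on the control side. Their part in the Runx1 signal was not tested.
Runx3, which in the mouse secures proprioceptor fate, had nearly equal signals, with 133 on the tumor side and 135 on the control side, a log2 ratio of -0.02. The probe set designed on its RefSeq mRNA was dim, with 10.5 on the tumor side and 23.2 on the control side. At that brightness the central range ran from -1.83 to 1.89, and its ratio of -1.15 lay within it. Which of the start sites shown above each probe set reads is not known here. Genes of lymphocytes, which can express Runx3, were dim, with none of 4 measured markers above the signal rule and a summed signal of 25.01 on the tumor side and 30.5 on the control side.

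The homeodomain factors of nociceptors showed a dim and a steady gene. Tlx3, which in the mouse is needed for most nociceptor subtypes and for glutamatergic fate in the spinal cord, did not reach the signal rule, with 20.8 on the tumor side and 31.9 on the control side. Both were above the trp controls, at percentile 28.8 of the tumor-side array and 36.8 of the control-side array. The log2 ratio of -0.62 lay inside the wide range of its neighbours, from -1.14 to 1.32, so a difference was not detectable at this brightness. Prrxl1, which encodes DRG11, a factor for the wiring of nociceptors to the dorsal horn, had 537 on the tumor side and 547 on the control side, a log2 ratio of -0.03 on its only probe set.

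Etv1, the gene of the ETS factor ER81 that proprioceptors need to connect with motor neurons in the mouse, had 5 probe sets, all above the rule. The brightest had 3328 on the tumor side and 3409 on the control side, a log2 ratio of -0.03. Log2 ratios of the other 4 were above 0, from 0.07 (1139 on the tumor side and 1081 on the control side) to 0.33 (407 and 323). The sign of Etv1 thus depended on the probe set, with a mean of 0.12 over all 5, close to the median of all genes. All 5 lay inside the range of their neighbours.
Klf7, the zinc finger gene, had 780 on the tumor side and 839 on the control side on its brightest probe set, a log2 ratio of -0.11. The 2 next probe sets disagreed, with 295 on the tumor side and 305 on the control side on one and 316 and 263 on the other. The last was dim, with 5.06 and 2.79, the control-side value being under the trp controls. With it the mean over the probe sets was 0.24 and without it 0.04.

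How far probe sets of the same gene differ gave a technical measure of spread. Of 4 members with a second probe set above the rule, Isl2, Runx1 and Etv1 had their 2 brightest going opposite ways, against 33.4% of 2201 such genes. Over all these genes the median distance between the 2 brightest was 0.13 on the log2 scale, which is larger than the log2 ratios of Runx3, Prrxl1, Etv1 and Klf7 on their brightest probe sets. The SD of the log2 ratio between probe sets of the same gene was also pooled over genes of similar signal. It was 0.17 at the signal of Pou4f1, 0.15 at that of Isl1, 0.10 at that of Isl2 and 0.13 at that of Runx1. Over all 16 member probe sets above the rule, 9 were lower and 7 were higher on the tumor side. The share lower among all 15925 probe sets above the rule is not given here, so these counts describe the members only.

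**Figure D3:**
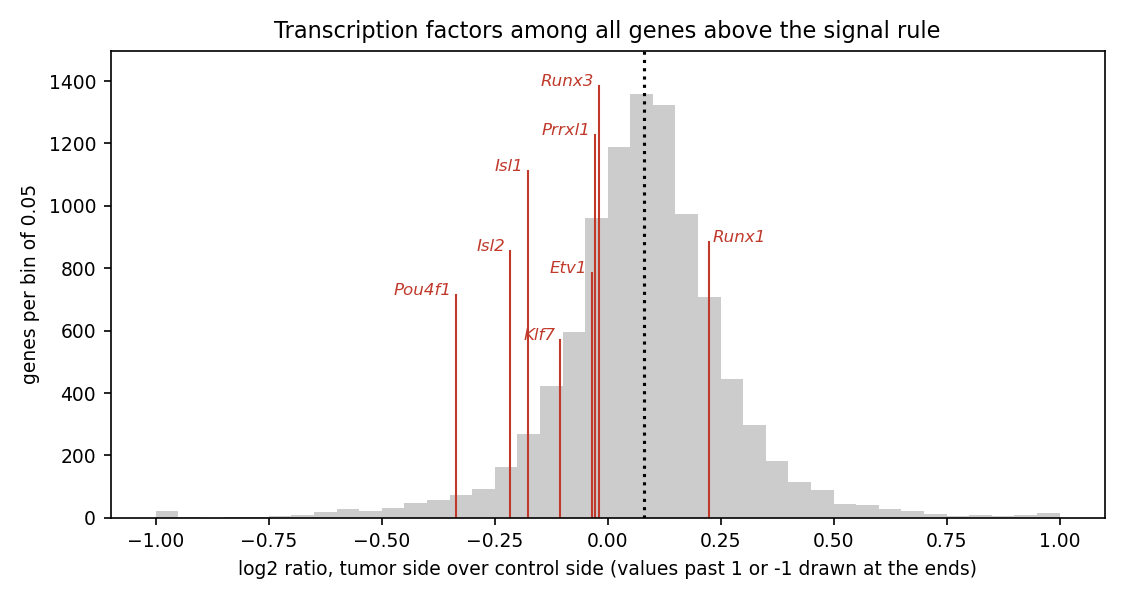
Number of genes above the signal rule per bin of log2 ratio, with the 8 members above the rule as red lines whose heights carry no value. The dotted line is the median of all 9695 genes, 0.08. Only Runx1 stands right of it, and Pou4f1 with -0.33 stands farthest left.

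The cofactors that these factors work with were higher more often than lower, as were genes in general. Of 17 listed, 16 were measured and 13 were above the rule, 11 of them higher and 2 lower, or 8 above and 5 below the median gene, with a median log2 ratio of 0.11 and none past a fold of 2. Cbfb, the partner that runt factors need to bind DNA, had 5347 on the tumor side and 5216 on the control side. Ldb1, the adaptor of LIM homeodomain factors, had 197 on the tumor side and 161 on the control side, its relative Ldb2 had 1561 and 1395, and the deacetylase gene Hdac1 had 157 and 137, with a log2 ratio of -0.03 on its other probe set. Ssbp2, which encodes a partner of LDB1, was farthest from 0 with 296 on the tumor side and 205 on the control side, a log2 ratio of 0.53 above the range of its neighbours, from -0.28 to 0.51, while its other probe set had 0.18.

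Other transcription factors of the lineage were mixed. Of 30 neurogenic and pan-sensory factors 21 were measured and 9 were above the rule, 5 higher and 4 lower, or 4 above and 5 below the median gene, with a median log2 ratio of 0.05 and none past a fold of 2. Eya2, a transcriptional coactivator, had 192 on the tumor side and 155 on the control side, with a log2 ratio of -0.04 on its other probe set, and its relative Eya1 had 152 and 140. Sox4 had 1307 on the tumor side and 1210 on the control side on the brightest of 7 probe sets, whose log2 ratios ran from -0.09 to 1.08. Sox2, which marks glia and progenitors, had 509 on the tumor side and 418 on the control side on the brightest of 4 probe sets, whose log2 ratios ran from -1.09 to 1.08. The proneural genes that start SN formation in the embryo were dim, with Neurog1 at 24.98 on the tumor side and 25.3 on the control side and Neurog2 at 17.7 and 9.41.
Of 31 subtype factors and paralogs of the members 25 were measured and 18 were above the rule, 10 higher and 8 lower, or 6 above and 12 below the median gene, with a median of 0.04 and none past a fold of 2. Tlx2, a paralog of Tlx3, had 68.9 on the tumor side and 83.5 on the control side, with a log2 ratio of -0.28 on this probe set and 0.32 on the other. Tlx2 met the signal rule only through the control side, where it was higher. Bcl11b had 144 on the tumor side and 174 on the control side, Onecut1 had 182 and 152, and Etv5, a paralog of Etv1, had 306 and 263. Bcl11b and Onecut1 each had a further probe set of opposite sign.

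The neurotrophic receptors that these factors control in the mouse were nearly level and under the median gene, as were 7 of 8 SN markers. All 7 above the rule, of 8 measured and 9 listed, had log2 ratios between -0.07 and 0.04, with a median of -0.03. Of these 7, 6 were below 0, against 29.1% of all genes above the rule. Ntrk3, the NT3 receptor gene that RUNX3 maintains in proprioceptors, had 618 on the tumor side and 649 on the control side, as read by probes that may cross-hybridise. Ntrk2, the BDNF receptor gene that RUNX3 represses, had 1346 on the tumor side and 1310 on the control side. This was the brightest of 5 probe sets, whose log2 ratios ran from -0.01 to 0.56. Ret, the receptor gene that non-peptidergic nociceptors gain under RUNX1, had 4507 on the tumor side and 4674 on the control side, and Ngfr had 1588 and 1672. Mrgprd, a gene that depends on RUNX1 in the mouse, has no probe set that carries its symbol alone and was not analysed here.

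Genes of small-diameter subtypes lay at the median gene. Of 25 listed, 18 were measured and 14 were above the rule, 12 higher and 2 lower, or 7 above and 7 below the median gene, with a median log2 ratio of 0.08 and none past a fold of 2. Gal, the gene of galanin, had 216 on the tumor side and 181 on the control side, Calcb had 3344 and 2948, Adcyap1 had 812 and 727, and Sst had 703 and 641. Calca, the CGRP gene of peptidergic nociceptors, had 9765 on the tumor side and 9589 on the control side, on probes that may cross-hybridise. This was the brightest of 3 probe sets, whose log2 ratios ran from 0.03 to 0.62. Trpm8, the cold receptor gene that needs RUNX1 in the mouse, was under the signal rule with 64.9 on the tumor side and 33.0 on the control side. Its log2 ratio of 0.97 lay above the range of its neighbours, from -0.84 to 0.78.
Genes of large-diameter mechanoreceptors and proprioceptors had a median of 0.02. Of 18 listed, 16 were measured and 14 were above the rule, 8 higher and 6 lower, or 4 above and 10 below the median gene, none past a fold of 2. Pvalb, the proprioceptor gene of parvalbumin, had 1200 on the tumor side and 1063 on the control side, and Calb2, the gene of calretinin, had 915 and 862. Kcnc1 had 163 on the tumor side and 146 on the control side. Slc17a7, the gene of the glutamate transporter VGLUT1, was lower with 167 on the tumor side and 212 on the control side, a log2 ratio of -0.35, but its dimmer probe set had 1.67.

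**Figure D4:**
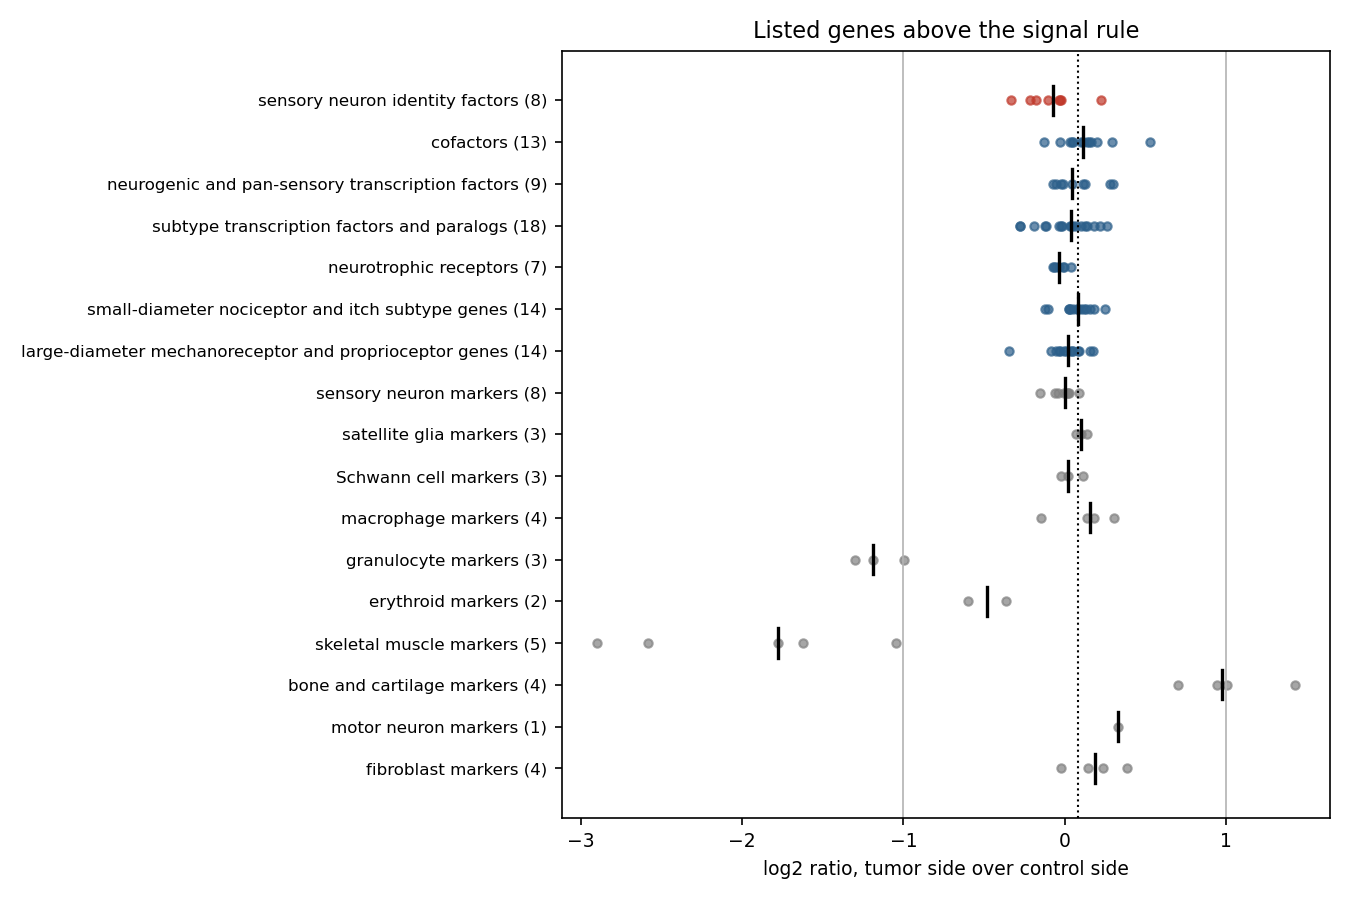
Log2 ratios, tumor side over control side, of listed genes that met the signal rule, each point being a gene, with list sizes in brackets and a bar at each list's median. The dotted line is the median of all genes, 0.08, and grey lines mark a fold of 2. The SN identity factors have a median of -0.07 and no point past a fold of 2, while all 5 skeletal muscle markers lie left of -1.

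Markers of whole cell types were read beside the factors. The 8 SN markers were all above the rule, 4 higher and 4 lower, or 1 above and 7 below the median gene, with a median log2 ratio of 0.00 and a summed signal of 49632 on the tumor side and 49612 on the control side. Rbfox3, the gene of the neuronal protein NeuN, was lowest with 1463 on the tumor side and 1624 on the control side, a log2 ratio of -0.15, while its other probe set had 0.07. The 3 satellite glia markers above the rule were higher, with a median of 0.10, and the 3 Schwann cell markers above it had a median of 0.02. Markers of tissues outside the ganglion moved more, as a fold of 2 or more was reached by 5 of 5 skeletal muscle markers and 2 of 3 granulocyte markers, all lower on the tumor side, and by 2 of 4 bone and cartilage markers, both higher. Of the muscle markers, Tnnc2, Myl1, Ckm and Tnnt3 reached the array median only in the control-side ganglia, where they were high, so their count is a description, and the other probe set of Tnnt3 had a log2 ratio of -0.12. Acta1, the gene of skeletal muscle actin, was above the median of both arrays, with 192 on the tumor side and 397 on the control side. The 2 erythroid markers above the rule, Alas2 and Hbb, were lower, with a median of -0.48. Alas2 reached the array median only on the control side, where it was high, and Hbb was read by probes that may cross-hybridise. The part of these tissues in the signals of the factors was not tested.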

How the data were processed

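RNA of DRGs was hybridized to Affymetrix Rat Genome GeneChips, 1 per side. The authors computed signal intensity values with MAS 5.0 (MAS5 in the submitters' processing notes) at default settings and deposited them on a linear scale, and the sources used here do not give the target of their scaling. Background correction and probe summary are thus part of the values. The 57 control probe sets were left out, 20826 of the others have 1 symbol, 436 have several and 9780 are unnamed here, and genes absent under a listed symbol were sought through RefSeq synonyms. A gene was read by the probe set of highest mean log2 signal, without pseudocount. The members and gene lists were chosen with earlier results of these data known. Named were all members, the 4 listed genes above the signal rule farthest from 0 in each list and a fixed set of partners and targets. Rbfox3, Csf1r, Alas2, Hbb, Neurog1, Neurog2 and the motor neuron and muscle markers were named after their values were seen. Alternatives were quantile normalization, median centring, loess (span 0.3), a pseudocount of 11.1 (percentile 20 of all signals), means over probe sets, leaving out probe sets open to cross-hybridisation, other signal filters and folds of 1.5 and 3. The fold count was tested on simulated data. No test was possible without replicate arrays, whose number limits the precision. Software was matplotlib 3.10.9, statsmodels 0.14.6, pandas 2.3.3 and numpy 2.4.6 under Python 3.11.15.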

Additional observations from a re-analysis of the deposited data

How the results depend on the processing

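Of 63 member values under 7 alternatives each, 51 moved by less than the SD between a gene's own probe sets and the other 12 moved further. Some of the 51 were bound to stay the same. Leaving out probe sets open to cross-hybridisation changed no member value. Pou4f1, Tlx3 and Prrxl1 have 1 probe set each, so no mean could change their values. Isl1 and Runx3 each have 1 probe set above the signal rule, so the mean over such probe sets returned their main values. Signs were kept under every alternative for 6 of 9 members, with fewer effective alternatives for these 5 genes. The sign of the other 3 turned with the means over probe sets, to -0.01 for Runx1, 0.12 for Etv1 and 0.24 for Klf7. Over probe sets above the signal rule, Klf7 had 0.04. That mean over probe sets above the rule was chosen after seeing the data. Members higher on the tumor side were then 2 of 8 with either mean, against 1 of 8. The median of the members lay between -0.16 and -0.02. No member passed a fold of 2 under any alternative run.

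Listed genes at least 2 times higher were 1 with the mean over all probe sets (Gfra2, through a second probe set at 2.75) and, without a signal filter, 5 higher (Ssbp4, Rest, Piezo2, Lpar3 and Lhx2) and 2 lower (Prdm12 and Rorb), all 7 dim and chosen here after their values were seen. All genes at least 2 times higher and lower numbered 107 and 70 with the mean over all probe sets, 613 and 527 without a filter, 4 and 3 with the filter at percentile 75, and 5 and 6 where both signals had to reach the median. Folds of 1.5 and 3 gave 115 and 72, and 4 and 7. No paired analysis was possible because only 1 array was made per side. Ratios scatter more at low signal, which limits what Tlx3 and the dim probe sets of Isl1, Runx3 and Klf7 can show.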
